A study of Mus musculus with 5 samples.

Results

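The 10 genes described here carry azacytidine and other cytidine analogs into the cell, phosphorylate them, reduce their ribose, or break down the products: the carriers SLC29A1 and SLC29A2, the kinases UCK1, UCK2, CMPK1 and DCK, the reductase subunits RRM1 and RRM2, the deaminase DCTD and the hydrolase SAMHD1. They were chosen by symbol from the 13979 gene symbols shared by 3 of the 5 deposited tables, and 10 of 10 were found. RNA sequencing was done on 5 libraries from LLC, a mouse Lewis lung carcinoma line, each library standing for a group of its own. By the study's account, they came from control tumors (Control), tumors given the PARP inhibitor BMN673 alone (BMN), tumors given alone the polymer PAZA, in which azacytidine is attached to the carrier, and tumors given BMN loaded in PAZA at a lower (BMN/PAZA low dose) or a higher dose (BMN/PAZA high dose). All 5 groups share the LLC line, and 3 of them received PAZA. The sample labels describe LLC cells in culture treated for 72 h, whereas the study's methods describe tumor tissue collected after the last treatment. Whether a library pools several animals is not stated in the sources used here.

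Azacytidine is a cytidine analog that enters cells largely through equilibrative nucleoside transporters. Uridine-cytidine kinases add the first phosphate, a step that limits its activation, and CMPK1 adds the second. Ribonucleotide reductase converts part of the diphosphate to the deoxy form, which is built into DNA and traps DNMT1, while the remainder enters RNA. DCK activates the related deoxycytidine analogs, DCTD deaminates deoxycytidylate, and SAMHD1 hydrolyses deoxynucleoside triphosphates.

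Levels are FPKM, fragments per kilobase of transcript scaled to library size, after each column was scaled to the same total over the shared symbols. Since FPKM is given per length, levels can be compared between genes. Differences between libraries are log2 differences of the scaled FPKM plus 1, and a gene was counted as past the fold when it differed by more than 1.5-fold on that scale. The tables hold no counts, which leaves the sequencing depth unknown, and a single library for each group allows neither a test nor an error for any value. Whether neighbours in an order of levels differ beyond replicate spread therefore cannot be judged. In bulk RNA, fewer cells of a type and less RNA per cell cannot be told apart.

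Of the cell type markers, the 11 myeloid genes summed to between 972 and 1517 scaled FPKM and the 7 fibroblast genes to between 314 and 819, with no gene of either list at 0. The 6 leukocyte genes summed to between 144 and 221, the 6 measured of 8 lymphocyte genes to between 4.48 and 12.3 (CD3E and CD79A were at 0 in at least 1 library), the 6 endothelial genes to between 27.9 and 47.5 and the 4 measured of 5 adipocyte genes to between 44.5 and 105, nearly all of it FABP4 (ADIPOQ, LEP and CIDEC were at 0 in at least 1 library). The 15 proliferation markers ranged from 1543 in BMN/PAZA high dose to 2575 in BMN. The 7 skeletal muscle genes ranged from 8.39 in Control to 201 in BMN/PAZA high dose (CKM and MB were at 0 in at least 1 library), and the 5 measured of 6 epidermis genes from 1.85 in BMN/PAZA low dose to 238 in BMN (KRT5, KRT1 and KRT15 were at 0 in at least 1 library). Of the 6 lung epithelium markers, 0 were among the shared symbols, although the labels give the tissue as lung. In the table of BMN and BMN/PAZA low dose, 5 of those 6 were listed at 0 in both libraries and AGER reached 0.351 FPKM in BMN/PAZA low dose.

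All 10 genes had a RefSeq promoter window, the 250 bases before the transcription start in GRCm38.p6. The windows of the reductase pair and of the carrier pair are shown because the expression results below turn on how the partners of each pair moved. By the GENCODE annotation of GRCm38, all 10 genes are protein coding. The carriers SLC29A1 and SLC29A2 lie at chr17:45585200-45599606 and chr19:5023860-5031972. The kinases UCK1, UCK2, CMPK1 and DCK lie at chr2:32255002-32260159, chr1:167222883-167285320, chr4:114959336-114987241 and chr5:88764996-88783281. RRM1 and RRM2 lie at chr7:102441695-102469771 and chr12:24708241-24714146, DCTD at chr8:48099092-48153233 and SAMHD1 at chr2:157097533-157135265. The printed windows lie at chr7:102441445-102441694 on the plus strand for RRM1, chr12:24708004-24708253 on the plus strand for RRM2, chr17:45599619-45599868 on the minus strand for SLC29A1, one of 8 RefSeq starts of that gene, and chr19:5023756-5024005 on the plus strand for SLC29A2. Each reads 5′ to 3′ towards the gene, and capitals mark CG dinucleotides, the bases at which DNA methylation is placed.
RRM1: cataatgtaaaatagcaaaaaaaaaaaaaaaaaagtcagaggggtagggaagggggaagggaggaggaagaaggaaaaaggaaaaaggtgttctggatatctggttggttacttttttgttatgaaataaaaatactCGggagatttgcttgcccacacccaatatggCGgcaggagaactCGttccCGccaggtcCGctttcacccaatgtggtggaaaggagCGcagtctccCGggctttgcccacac
RRM2: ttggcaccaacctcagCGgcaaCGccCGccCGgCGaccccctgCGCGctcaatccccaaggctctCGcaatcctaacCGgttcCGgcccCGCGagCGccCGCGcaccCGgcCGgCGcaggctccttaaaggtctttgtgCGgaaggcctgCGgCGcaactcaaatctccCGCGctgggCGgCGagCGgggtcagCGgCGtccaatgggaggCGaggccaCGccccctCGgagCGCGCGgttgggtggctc
SLC29A1: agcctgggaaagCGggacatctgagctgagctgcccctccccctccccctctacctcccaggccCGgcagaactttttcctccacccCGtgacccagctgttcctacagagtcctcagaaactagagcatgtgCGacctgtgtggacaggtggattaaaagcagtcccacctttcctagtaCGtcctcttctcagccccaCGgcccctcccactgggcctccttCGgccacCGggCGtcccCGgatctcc
SLC29A2: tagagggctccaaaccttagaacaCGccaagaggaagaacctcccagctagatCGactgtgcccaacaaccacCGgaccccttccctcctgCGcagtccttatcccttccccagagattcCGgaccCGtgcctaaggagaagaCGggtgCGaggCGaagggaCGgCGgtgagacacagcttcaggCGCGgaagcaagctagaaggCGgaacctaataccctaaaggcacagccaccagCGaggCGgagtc

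The RRM2 window held 34 CG dinucleotides, more than in 96.5% of the 32851 promoter windows, and the RRM1 window held 7, close to the median of 6. SLC29A2 had 16 and SLC29A1 had 10. Of the other genes, SAMHD1 held 26, UCK2 21, DCK 18, CMPK1 17, UCK1 12 and DCTD 7, so that 10 of 10 windows lay above the median. The motif CCAAT, searched on both strands, was present only in the RRM1 window, at 91 and 45 bases before the start, and in the RRM2 window, at 50 bases before it, against 33.8% of all windows. GGGCGG, searched on both strands, was present in 5 of the 10 windows against 32.7% of all. The letters describe the reference sequence, and methylation at these windows was not measured in the files used here.

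The carriers were the least abundant members and spanned the widest ratios between libraries. SLC29A1, the equilibrative transporter ENT1, stood at 3.80 scaled FPKM in Control, 2.07 in BMN, 1.08 in PAZA, 2.17 in BMN/PAZA low dose and 0.281 in BMN/PAZA high dose. Control was the highest of the 5 libraries and BMN/PAZA high dose the lowest, at a ratio of 13.5. SLC29A2, the related transporter ENT2, stood at 0.576 in Control, 0.932 in BMN, 1.43 in PAZA, 1.64 in BMN/PAZA low dose and 3.11 in BMN/PAZA high dose. The carriers thus had their extremes in the same pair of libraries but in opposite directions, and SLC29A2 spanned a ratio of 5.40. The orders of both genes were the same when columns were scaled by the median of ratios. Against Control, the log2 difference of SLC29A1 was -1.21 in PAZA, -0.64 in BMN, -0.60 in BMN/PAZA low dose and -1.90 in BMN/PAZA high dose, past the fold in all 4 treated libraries. In BMN/PAZA low dose this call was lost under the median of ratios, at -0.53, and without the 100 highest symbols, also at -0.53. That of SLC29A2 was 0.63 in PAZA, 0.74 in BMN/PAZA low dose and 1.38 in BMN/PAZA high dose, past the fold in the 3 libraries that had received PAZA. In BMN it was 0.29, a value that rests on the pseudocount of 1. Without a pseudocount, the ratio of SLC29A2 to Control was 1.62 in BMN, 2.49 in PAZA, 2.84 in BMN/PAZA low dose and 5.40 in BMN/PAZA high dose. All 4 treated libraries then lay more than 1.5-fold above Control. As deposited in 1 table, the difference in PAZA was 0.47 and not past the fold. Within a library, the ratio of SLC29A1 to SLC29A2, which does not depend on the scaling, was 6.59 in Control, 2.22 in BMN, 0.751 in PAZA, 1.32 in BMN/PAZA low dose and 0.0904 in BMN/PAZA high dose. SLC29A1 was thus the higher of the pair in Control, BMN and BMN/PAZA low dose, and the lower in PAZA and BMN/PAZA high dose. Exons of SLC29A1 share 275 bases with the antisense gene Gm17080, and whether the counting used strand is not given in the sources used here. With values of a few FPKM or less and an unknown depth, the counting error of the carriers could not be estimated.

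**Figure D1:**
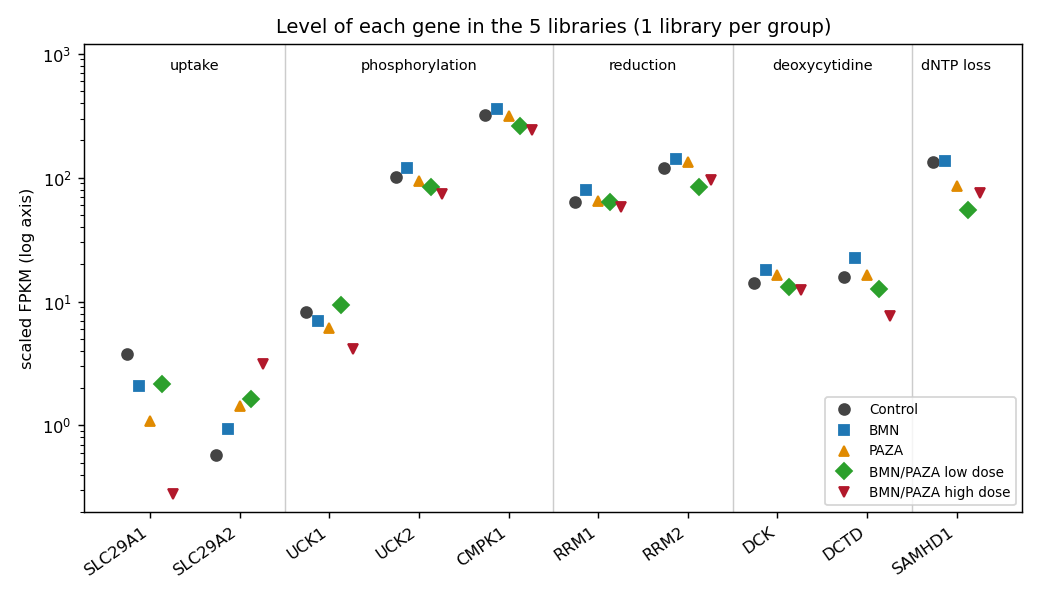
Level of each gene in scaled FPKM (vertical log axis) in the 5 libraries, with 1 point per library and no error bars, genes ordered by role. SLC29A1 ran from 3.80 in Control to 0.281 in BMN/PAZA high dose while SLC29A2 ran from 0.576 to 3.11 in the same libraries, and CMPK1, RRM1 and DCK kept within a ratio of 1.49 between their highest and lowest library.

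The kinases of the first step differed widely in level. UCK2, the uridine-cytidine kinase with the higher affinity for these substrates, stood at 101 scaled FPKM in Control, 119 in BMN, 93.5 in PAZA, 84.4 in BMN/PAZA low dose and 73.6 in BMN/PAZA high dose. It was highest in BMN and lowest in BMN/PAZA high dose, at a ratio of 1.61, and no treated library was past the fold against Control. UCK1, its paralog, stood at 8.26 in Control, 6.91 in BMN, 6.16 in PAZA, 9.44 in BMN/PAZA low dose and 4.13 in BMN/PAZA high dose. BMN/PAZA low dose and BMN/PAZA high dose were the ends of this range, at a ratio of 2.28. UCK1 was past the fold against Control only in BMN/PAZA high dose, with a log2 difference of -0.85, and it was higher in BMN/PAZA low dose than in BMN/PAZA high dose by 1.02. The ratio of UCK2 to UCK1 was 12.3 in Control, 17.2 in BMN, 15.2 in PAZA, 8.95 in BMN/PAZA low dose and 17.8 in BMN/PAZA high dose. Exons of UCK2 share 150 bases with a noncoding gene on the opposite strand, Gm2453. UCK1 is uncertain because a processed pseudogene, Gm4482, matches 742 of its 2005 transcript bases at 99.3% identity, and how the counting split such reads is not given in the sources used here.

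CMPK1, the UMP/CMP kinase of the second step, was the most abundant member. Its level was 318 scaled FPKM in Control, 359 in BMN, 314 in PAZA, 260 in BMN/PAZA low dose and 241 in BMN/PAZA high dose. The highest library exceeded the lowest by a ratio of 1.49, and CMPK1 was past the fold in 0 of 8 comparisons. The ratio of CMPK1 to UCK2 stayed between 3.02 and 3.36 over the 5 libraries. A processed pseudogene, Gm5867, matches 592 of the 3170 bases of CMPK1 at 96.5% identity.

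Of the reductase, the catalytic subunit RRM1 stood at 63.8 scaled FPKM in Control, 79.7 in BMN, 64.7 in PAZA, 63.7 in BMN/PAZA low dose and 57.8 in BMN/PAZA high dose. Control, PAZA and BMN/PAZA low dose were close to one another, BMN was the highest, and RRM1 was past the fold in 0 of 8 comparisons. RRM2, the cell cycle-regulated subunit that carries the radical, stood at 121 in Control, 142 in BMN, 134 in PAZA, 84.2 in BMN/PAZA low dose and 96.4 in BMN/PAZA high dose. The 2 combination libraries lay below the other 3. None of the treated libraries was past the fold against Control, but RRM2 in BMN/PAZA low dose differed by -0.75 from BMN and by -0.67 from PAZA. The difference from BMN was no longer past the fold under the median of ratios, at -0.55, without the 100 highest symbols in the scaling sum, at -0.57, or as deposited in the table that holds both, at -0.58. The ratio of RRM2 to RRM1 was 1.89 in Control, 1.79 in BMN, 2.08 in PAZA, 1.32 in BMN/PAZA low dose and 1.67 in BMN/PAZA high dose, so that the combination libraries also had the lowest ratios. The proliferation markers, with sums of 1866 in Control, 2575 in BMN, 1981 in PAZA, 1697 in BMN/PAZA low dose and 1543 in BMN/PAZA high dose, were likewise highest in BMN and lowest in the combination libraries. Without PCNA, which was off the constant between tables described below for SAMHD1, the sums were 1386, 1623, 1474, 1273 and 1180 in the same order. Scaled by the median of ratios, the 14 markers without PCNA summed to 1322 in Control, 1428 in BMN, 1515 in PAZA, 1289 in BMN/PAZA low dose and 1329 in BMN/PAZA high dose, and RRM2 was likewise highest in PAZA, at 138 against 125 in BMN. The markers' part in the RRM2 result was not tested. Within a library, the ratio of RRM2 to single proliferation markers was between 0.42 and 0.59 for TOP2A and between 0.69 and 1.39 for MKI67. For PCNA, which was off the constant, it was 0.15 in BMN and between 0.20 and 0.27 in the other libraries. MKI67 stood at 154 in Control and 97.0 in PAZA, the opposite order to RRM2. A processed pseudogene, Gm48455, matches 419 of the 2193 bases of RRM2 at 95.5% identity.

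**Figure D2:**
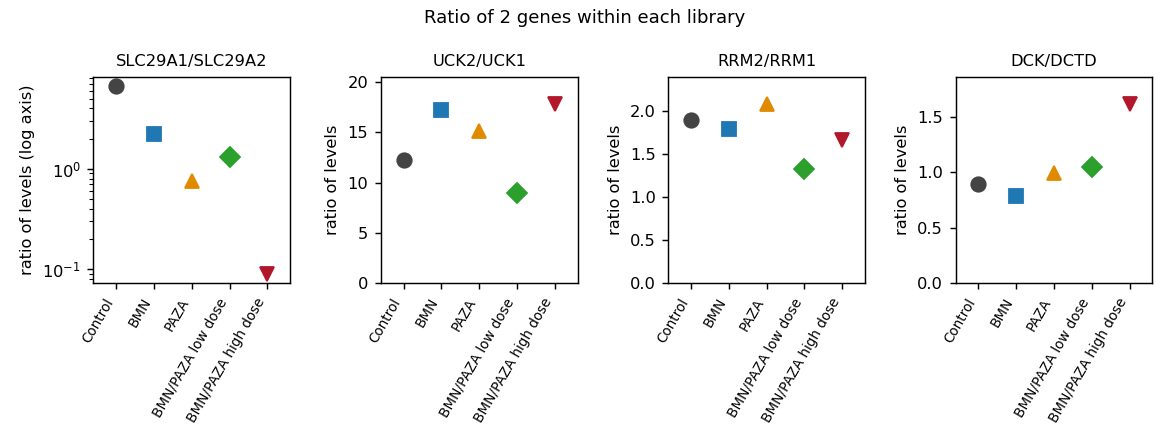
Ratio of the scaled FPKM of 2 genes within each library, with 1 point per library and no error bars; the vertical axis of the carrier ratio is logarithmic and the other axes start at 0. The ratio of SLC29A1 to SLC29A2 was 6.59 in Control and 0.0904 in BMN/PAZA high dose, RRM2 to RRM1 was lowest at 1.32 in BMN/PAZA low dose, and DCK to DCTD was highest at 1.62 in BMN/PAZA high dose.

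DCK, the deoxycytidine kinase, stood at 14.1 scaled FPKM in Control, 17.9 in BMN, 16.3 in PAZA, 13.2 in BMN/PAZA low dose and 12.4 in BMN/PAZA high dose. It spanned a ratio of 1.44 and was past the fold in 0 of 8 comparisons. DCTD, which converts deoxycytidylate to deoxyuridylate, stood at 15.9 in Control, 22.6 in BMN, 16.4 in PAZA, 12.6 in BMN/PAZA low dose and 7.65 in BMN/PAZA high dose. BMN was the highest library and BMN/PAZA high dose the lowest, at a ratio of 2.96, and this order was the same under the median of ratios. The log2 difference of BMN/PAZA high dose was -0.96 from Control and -1.45 from BMN, and that of BMN/PAZA low dose was -0.80 from BMN. The ratio of DCK to DCTD was 0.892 in Control, 0.789 in BMN, 0.993 in PAZA, 1.05 in BMN/PAZA low dose and 1.62 in BMN/PAZA high dose.

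SAMHD1, the triphosphohydrolase, stood at 135 scaled FPKM in Control, 137 in BMN, 84.9 in PAZA, 55.2 in BMN/PAZA low dose and 74.5 in BMN/PAZA high dose. The 3 libraries that had received PAZA lay below the other 2, with log2 differences from Control of -0.66, -1.27 and -0.84. These values depend on the table they are read from. Each of the PAZA and BMN/PAZA low dose libraries occurs in more than 1 table, where nearly all genes keep a constant ratio between tables, and SAMHD1 was the only one of the 10 genes more than 0.5% off that constant. Its scaled level in BMN/PAZA low dose was 55.2 in the table with BMN/PAZA high dose, 109 in the table with BMN and 132 in the table with PAZA. In PAZA it was 84.9 in the table with Control and 52.9 in the table with BMN/PAZA low dose. The BMN/PAZA low dose value in the table with BMN was within 0.2% of 2 times that given by the value in the table with BMN/PAZA high dose and the constant of 0.307 between those tables. Across the pairs of tables, between 351 and 416 symbols were off the constant for these libraries, against 0 of 13859 for BMN and 1 of 13738 for BMN/PAZA high dose. Such agreement cannot show that a value is right, and Control, which is in only 1 table, could not be compared. Read within the table that holds both libraries, without rescaling, SAMHD1 differed from PAZA by 1.24 in BMN/PAZA low dose, opposite in sign to the -0.61 of the chosen columns, and from BMN by -0.15 in place of -1.30. The value of BMN/PAZA high dose did not differ between its tables, and the log2 difference of PAZA from Control was -0.58 in their shared table without rescaling. SAMHD1 is also known to be abundant in myeloid cells, whose markers summed to 1151 in Control, 1177 in BMN, 1517 in PAZA, 1309 in BMN/PAZA low dose and 972 in BMN/PAZA high dose, and their part in the SAMHD1 result was not tested.

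**Figure D3:**
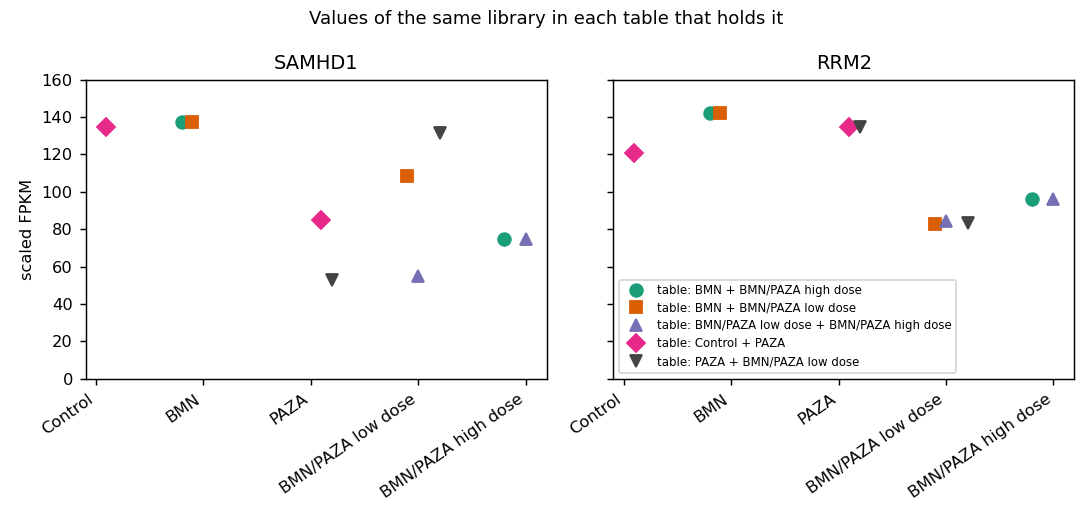
Scaled FPKM of SAMHD1 and RRM2 (vertical axes) for each of the 5 libraries, with 1 point for every deposited table that holds the library, the symbols naming the table, and no error bars. The SAMHD1 points of BMN/PAZA low dose lie at 55.2, 109 and 132 and those of PAZA at 52.9 and 84.9, while the RRM2 points of a library lie almost on top of each other.

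The members past the fold were then set beside the share of all 13979 shared symbols past the same fold, which is the background for each count. In PAZA against Control, 3 of 10 members were past the fold (SLC29A2 higher, SLC29A1 and SAMHD1 lower), against 24.6% of symbols, of which 10.5% were higher and 14.0% lower. SAMHD1 was not past it under the median of ratios, at -0.55, or without the 100 highest symbols, at -0.57, and as deposited in 1 table neither SAMHD1, at -0.58, nor SLC29A2, at 0.47, was past it. In BMN against Control, 1 of 10 was past it (SLC29A1 lower), against 19.7% of symbols, 12.9% higher and 6.75% lower. In BMN/PAZA low dose against Control, the same 3 genes as in PAZA were past the fold, each in the same direction, against 23.8% of symbols, 11.2% higher and 12.7% lower. Besides the loss of SLC29A1 given above, SAMHD1 was at -0.31 with the values of the other tables and at -0.033 with BMN/PAZA low dose from its table with PAZA. In BMN/PAZA high dose against Control, 5 of 10 were past it (SLC29A2 higher, UCK1, DCTD, SLC29A1 and SAMHD1 lower), against 26.0% of symbols, 8.31% higher and 17.7% lower. Without the 100 highest symbols, SAMHD1 was at -0.58 and just short of the fold. These 4 comparisons share the Control library. With 10 genes, the shares in PAZA, BMN and BMN/PAZA low dose were within 1 gene of the background, and no test of the difference was available.

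Against BMN, 3 of 10 members were past the fold in BMN/PAZA low dose (RRM2, DCTD and SAMHD1, all lower), with 27.8% of symbols. RRM2 was lost under the median of ratios, which left 2 of 10 with 25.3% of symbols, and SAMHD1 was lost with values of other tables, which also left 2, with 28.1% of symbols. In BMN/PAZA high dose, 6 of 10 members were past the fold, with 29.4% of symbols. Of those 6, UCK1 (-0.62), UCK2 (-0.68), DCTD (-1.45), SLC29A1 (-1.26) and SAMHD1 (-0.87) were lower and SLC29A2 (1.09) was higher. When columns were scaled by the median of ratios, 3 of 10 were past the fold, with 22.1% of symbols: UCK1, at -0.32, UCK2, at -0.33, and SAMHD1, at -0.52, were no longer among them. Against PAZA, BMN/PAZA low dose had 3 of 10 members past the fold (SLC29A1 higher, RRM2 and SAMHD1 lower), with 17.3% of symbols. As deposited in the table that holds both libraries, SLC29A1 was at 0.44 and no longer past the fold, and SAMHD1 was higher, at 1.24, in place of lower. Between the doses, 4 of 10 members were past it, with 19.0% of symbols: UCK1, DCTD and SLC29A1 were higher in BMN/PAZA low dose and SLC29A2 lower. SAMHD1, at -0.43, was not among them, with 55.2 in BMN/PAZA low dose and 74.5 in BMN/PAZA high dose. With its level from the other tables, 109 or 132, BMN/PAZA low dose was the higher of the doses. DCTD was lost under the median of ratios, at 0.51, which left 3 of 10 with 17.8% of symbols. Markers of other cells moved in most of these comparisons. The 7 fibroblast markers summed to 314 in Control, 819 in BMN, 535 in PAZA, 319 in BMN/PAZA low dose and 352 in BMN/PAZA high dose. Of these, 7 of 7 were higher past the fold in BMN than in Control and 3 of 7 in PAZA. In either combination library 6 of 7 were lower than in BMN, and 2 of 7 were lower in BMN/PAZA low dose than in PAZA. The 7 skeletal muscle markers summed to 8.39 in Control, 179 in BMN, 60.7 in PAZA, 11.3 in BMN/PAZA low dose and 201 in BMN/PAZA high dose. Against Control, 7 of 7 were higher past the fold in BMN, PAZA and BMN/PAZA high dose and 2 of 7 in BMN/PAZA low dose, and 7 of 7 were lower in BMN/PAZA low dose than in BMN, PAZA or BMN/PAZA high dose. The 5 epidermis markers summed to 87.2 in Control, 238 in BMN, 8.94 in PAZA, 1.85 in BMN/PAZA low dose and 16.2 in BMN/PAZA high dose. Of these, 5 of 5 were lower past the fold in each of the 3 libraries that had received PAZA than in Control, and 4 of 5 were higher in BMN. Of the 6 endothelial markers, 4 were higher and 0 lower in BMN than in Control. Of the 6 measured lymphocyte markers, 0 were higher and 4 lower in BMN/PAZA high dose than in Control. Against BMN, BMN/PAZA high dose had 3 of 6 leukocyte and 3 of 11 myeloid markers lower, and 0 higher in either list. The part of these markers in the differences of the carriers, UCK1, UCK2, RRM2, DCTD and SAMHD1 was not tested. Without SAMHD1, the counts of the remaining 9 genes were 2 in PAZA, 1 in BMN, 2 in BMN/PAZA low dose and 4 in BMN/PAZA high dose, each against Control.

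The scaling shifted all symbols in some comparisons, so that a small difference must be read against it. Over the 11214 symbols with a mean of at least 1, the median log2 difference was -0.098 in PAZA, 0.092 in BMN, -0.077 in BMN/PAZA low dose and -0.22 in BMN/PAZA high dose, each against Control. It was -0.18 in BMN/PAZA low dose and -0.31 in BMN/PAZA high dose against BMN, 0.026 in BMN/PAZA low dose against PAZA and 0.13 against BMN/PAZA high dose. The median of the 10 members was 0.0015, 0.23, -0.27 and -0.43 in the same 4 comparisons with Control. In BMN/PAZA high dose against BMN it was -0.60, and 9 of 10 members lay below the median of the symbols, the exception being SLC29A2. Under the column sums, 7 of 10 members were highest in BMN, as were 37.4% of symbols, and 7 of 10 were lowest in BMN/PAZA high dose, as were 36.2% of symbols. Scaled by the median of ratios, 3 of 10 were highest in BMN and 4 of 10 lowest in BMN/PAZA high dose, with 20.3% and 17.2% of symbols.

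**Figure D4:**
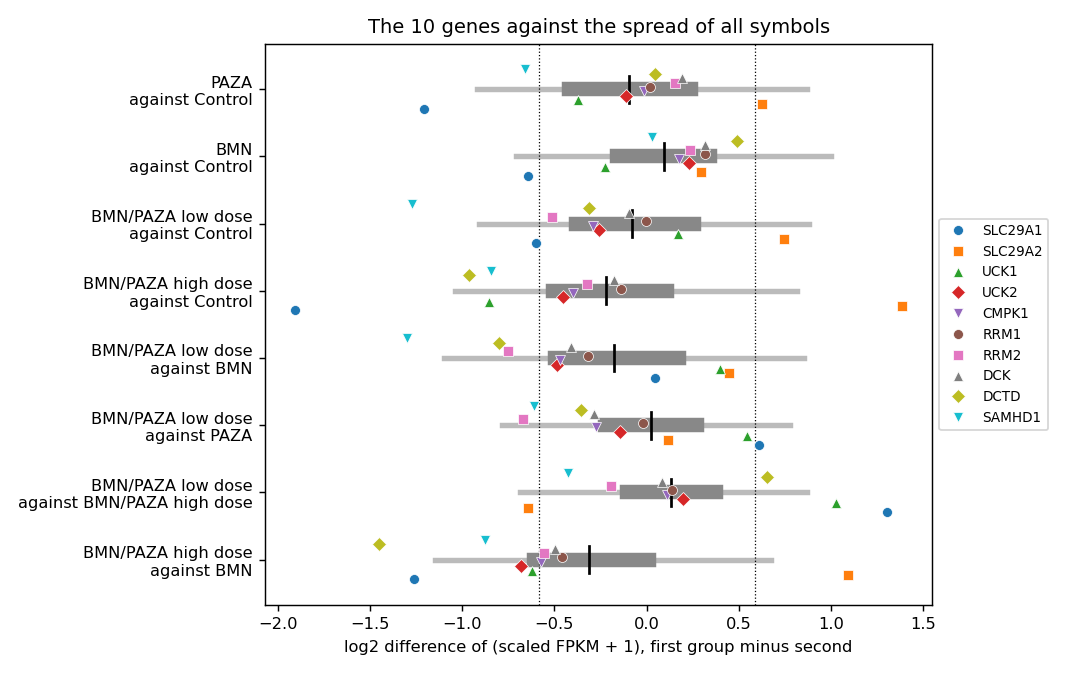
Log2 difference of scaled FPKM plus 1 (horizontal axis, first group minus second) of the 10 genes in 8 comparisons, with thin bars from the 5th to the 95th percentile and thick bars from the 25th to the 75th of 11214 symbols, a black tick at their median and dotted lines at 1.5-fold. SLC29A1 and SLC29A2 lie on opposite sides in BMN/PAZA high dose against Control, at -1.90 and 1.38, while CMPK1, RRM1 and DCK lie between the dotted lines in all 8 comparisons.

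The genes whose log2 differences from Control in the 4 treated libraries were closest to those of a member were found among 8278 symbols with a mean of at least 5, by the root mean square distance over the 4 values. For UCK2 they were SARS at 0.015, RAI14 at 0.033, SEC23A at 0.035, KDM4C at 0.037 and ACTR2 at 0.042. For RRM2 they were D16ERTD472E at 0.052, VCAM1 at 0.059, MCCC2 at 0.063, PTPRC at 0.070 and DRAM1 at 0.080. For SAMHD1 they were AK1 at 0.083, C2CD3 at 0.085, HIRIP3 at 0.094, GOLGA5 at 0.11 and SPPL2B at 0.13. VCAM1 and AK1, like SAMHD1, were off the constant between tables. The SAMHD1 list rests on the chosen columns, where its level in BMN/PAZA low dose was 55.2, against 109 and 132 in the other tables. The search was not repeated with those values.

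The wider pathway held 75 measured genes of nucleoside transport, cleavage, phosphorylation, synthesis and breakdown. Of these, 21 were off a constant between tables and 54 kept it, beside 373 off it among all 13979 shared symbols. The values of the 21 in PAZA and BMN/PAZA low dose rest on the table chosen. Their values in BMN and BMN/PAZA high dose did not differ between tables, and those of Control come from a single table. In 18 of the 75, against 145 of all 17126 symbols compared and 0 of the 10 members, the BMN value equalled 2 times the BMN/PAZA low dose value in the table with PAZA after the constant, within 0.2%. Among the 18 were CDA, the cytidine deaminase that inactivates azacytidine, and TYMS, the thymidylate synthase. CDA stood at 2.26 scaled FPKM in Control, 11.2 in BMN, 7.61 in PAZA, 4.98 in BMN/PAZA low dose and 2.24 in BMN/PAZA high dose. TYMS stood at 13.3 in Control, 77.3 in BMN, 24.2 in PAZA, 34.4 in BMN/PAZA low dose and 16.4 in BMN/PAZA high dose. In BMN against Control, 20 of the 75 genes were higher past the fold and 9 lower, whereas of the 54 that kept the constant 3 were higher and 8 lower, beside 12.9% of all symbols higher and 6.75% lower.

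Of the 54 genes, 6 were higher and 7 lower in PAZA, 5 higher and 4 lower in BMN/PAZA low dose, and 3 higher and 13 lower in BMN/PAZA high dose, each against Control. The shares of all symbols were 10.5% higher and 14.0% lower in PAZA, 11.2% and 12.7% in BMN/PAZA low dose, and 8.31% and 17.7% in BMN/PAZA high dose. Their median log2 difference was -0.045, 0.096 and -0.12, beside -0.068, -0.026 and -0.16 over all shared symbols. ADK, the adenosine kinase, was at 187 scaled FPKM in Control, 113 in BMN, 112 in PAZA, 124 in BMN/PAZA low dose and 66.7 in BMN/PAZA high dose. All 4 treated libraries lay below Control. UCKL1, a relative of the uridine-cytidine kinases, was at 28.7 in Control, 7.89 in BMN, 26.2 in PAZA, 12.6 in BMN/PAZA low dose and 5.55 in BMN/PAZA high dose. It was low in the 3 libraries that had received BMN. Of the 12 phosphatases and nucleotidases that kept the constant, 4 were higher and 0 lower in PAZA against Control, 3 higher and 0 lower in either combination library, and 2 higher and 1 lower in BMN, where the lower gene was NT5E at -0.59, just past the fold. The shares of all symbols are those given above for the same comparisons. NT5M, the mitochondrial deoxynucleotidase, was at 2.65 in Control and between 5.29 and 6.62 in the treated libraries. NUDT1, which hydrolyses oxidised purine triphosphates, was at 6.59 in Control and between 11.7 and 16.2 in the treated libraries. Of the de novo pyrimidine genes that kept the constant, CAD, which catalyses the first steps, was past the fold only in comparisons with BMN/PAZA low dose, at 20.3 against 11.6 in Control, 12.1 in BMN, 9.34 in PAZA and 12.5 in BMN/PAZA high dose. Of the 12 de novo purine genes that kept the constant, 0 were higher and 3 lower in BMN/PAZA high dose against Control, beside 8.31% and 17.7% of all symbols, which is a difference of about 1 gene.

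**Figure D5:**
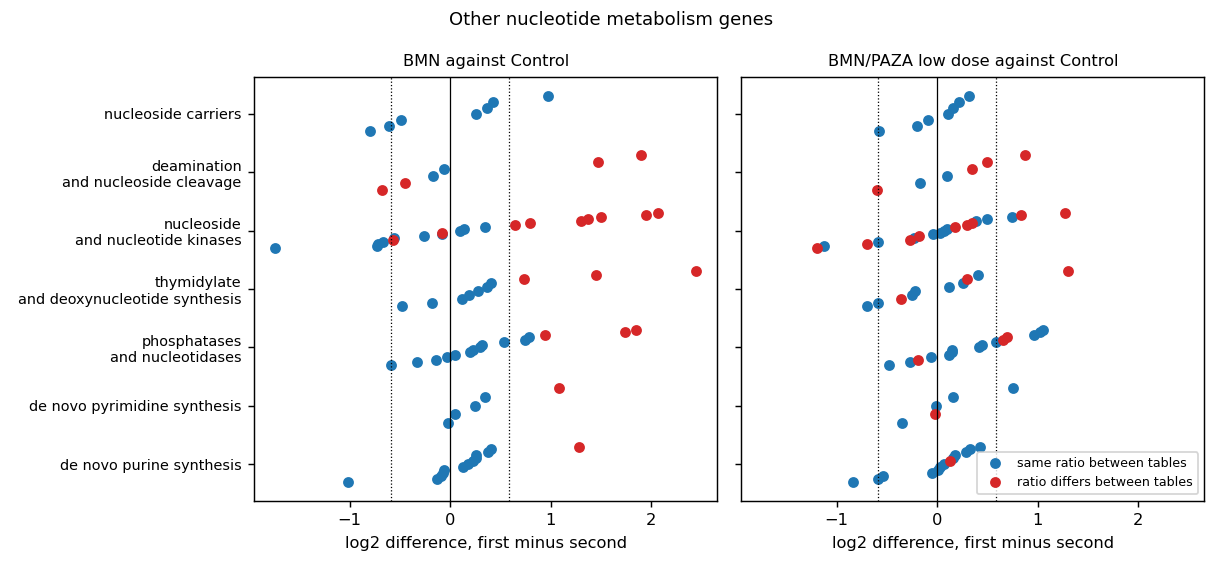
Log2 difference from Control of scaled FPKM plus 1 (horizontal axis) of 75 other nucleotide metabolism genes by list, in BMN on the left and BMN/PAZA low dose on the right, with 1 point per gene, no error bars and dotted lines at 1.5-fold. Blue points keep a constant ratio between tables and red points do not; in BMN, 20 genes are higher past the fold, 3 of them blue.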

How the data were processed

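The authors mapped reads to GRCm38, with HISAT2 and StringTie given per the labels. Versions and settings are not given in the sources used here. They deposited 5 tables of 2 libraries each that name no unit, and the deposited values were read as FPKM from their form. The scale of a library could differ between tables: BMN and BMN/PAZA high dose had the same values within 0.5% in both of their tables, except 1 symbol of BMN/PAZA high dose, whereas PAZA and BMN/PAZA low dose differed by a constant whose cause was not tested. The BMN/PAZA low dose column beside BMN/PAZA high dose summed to 1904030 over the shared symbols, and the other columns of the 3 tables used to between 520108 and 586376. Control and PAZA were taken from their shared table, BMN and BMN/PAZA high dose from theirs, and BMN/PAZA low dose from its table with BMN/PAZA high dose. The row with the highest mean represented a repeated symbol, and each column was scaled to 1000000 over 13979 symbols. Levels set across tables rest on this scaling. A pseudocount of 1 and a fold of 1.5 were used in 8 comparisons. A gene more than 0.5% from the median ratio between tables was off the constant.

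Named genes were the 10 members, at most the 2 highest and 2 lowest genes per wider list and comparison past the fold with a mean of at least 1, and the 5 nearest patterns of RRM2, UCK2 and SAMHD1. The members and lists were chosen with earlier results of these data known, and the ratios after values were seen. Alternatives were a pseudocount of 0.1, a fold of 2, median-of-ratios scaling, sums without the 100 highest symbols, a mean of at least 1, summed rows, values as deposited, other tables and, chosen after seeing the data, PAZA and BMN/PAZA low dose from their shared table. Near copies were GENCODE transcripts with at least 95% identity over 300 bases. The steps were tested on simulated data with Python 3.11.15, numpy 2.4.6, pandas 2.3.3 and matplotlib 3.10.9.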

Additional observations from a re-analysis of the deposited data

Results flagged for a closer look

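For 6 of the 10 genes, the log2 difference of PAZA from Control had the opposite sign to that of BMN/PAZA low dose from BMN, which marks them for a closer look. The second difference less the first was 0.77 for UCK1, -0.34 for RRM1, -0.90 for RRM2, -0.60 for DCK, -0.84 for DCTD and 1.25 for SLC29A1. UCK1 and SLC29A1 were lower in PAZA than in Control and higher in BMN/PAZA low dose than in BMN, and the other 4 genes went the other way. Some of these signs rest on differences near 0: RRM1 was at 0.019 and DCTD at 0.046 in PAZA against Control, where the median of the symbols was -0.098, and SLC29A1 was at 0.046 in BMN/PAZA low dose against BMN, where it was -0.18. For UCK1 the 2 differences were -0.37 and 0.40, for RRM2 0.15 and -0.75, and for DCK 0.19 and -0.41. With 1 library per group the difference was not tested, and 37.9% of the 11214 symbols with a mean of at least 1 also had opposite signs. As deposited within the table that holds each pair, the 6 genes also had opposite signs, with -0.28 and 0.50 for UCK1, 0.092 and -0.15 for RRM1, 0.23 and -0.58 for RRM2, 0.25 and -0.24 for DCK, 0.11 and -0.61 for DCTD and -0.93 and 0.13 for SLC29A1. CMPK1, at 0.059 and -0.30, then had opposite signs too.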

How the results depend on the processing

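No paired analysis was possible because each group has 1 library. Of 690 values of single genes under the alternatives, 631 stayed on the same side of the fold, 55 crossed it, 18 of them because the fold itself was raised to 2, and 4 that were past the fold changed sign. SAMHD1 in BMN/PAZA low dose against PAZA became 1.24 as deposited in 1 table, 1.02 from the other tables and 1.30 from the shared table, since its value differs between tables. SLC29A2 in BMN/PAZA low dose against BMN/PAZA high dose became 0.54 as deposited, where the low dose column is not brought to scale. Counts of members past the fold moved by over 1.5 times as follows. As deposited in 1 table, the count was 1 in PAZA against Control, 1 in BMN/PAZA low dose against BMN and 9 between the doses, with 18.3%, 20.4% and 85.1% of symbols. With a pseudocount of 0.1 it was 2 in BMN against Control, with 32.8% of symbols. In BMN/PAZA high dose against BMN it was 3 with median-of-ratios scaling and 3 without the 100 highest symbols, with 22.1% and 22.2% of symbols. With a fold of 2 it was 1, 0, 1 and 2 in PAZA, BMN, BMN/PAZA low dose and BMN/PAZA high dose against Control, with 7.0%, 6.78%, 7.11% and 7.98% of symbols. It was 1 and 3 in the low and high dose against BMN, 0 in BMN/PAZA low dose against PAZA and 2 between the doses, with 9.01%, 9.0%, 5.19% and 5.72% of symbols. The other counts kept within 1.5 times. SAMHD1 accounted for 18 of the 55 that crossed and 3 of the 4 that changed sign. How far depth limits the low-level carriers could not be estimated, since it is unknown.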
